A study of Mus musculus with 10 samples.

Results

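The 34 genes described here encode the glucose transporters, the enzymes of glycolysis, the lactate dehydrogenases with their transporters, and the enzymes of the pentose phosphate pathway. Each was found by its symbol in the row names of the deposited gene table, and all 34 listed genes were found among 49624 distinct names. They filled 35 rows because Ldhb had 2 rows, which were summed. In 4 of these rows the gene was merged with another annotation: Hk1 with Hkdc1, Pfkfb2 with C4bp-ps1 and Gm29427, Pkm with AC160637.1, and Tkt with Mir3076. Every one of the 34 exceeded the filter on low values, and the smallest value of any of them in any library was 21.7 normalised counts (Slc16a3, in an ETO library).

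RNA came from blastocyst-derived mouse embryonic stem cells kept in 2i/LIF medium, which contains 1 µM of the MEK inhibitor PD0325901, 3 µM of the GSK3 inhibitor CHIR99021 and 1000 U/ml of the cytokine LIF. In the first experiment the cells carried Mof fl/fl alleles with a Cre-ER TM transgene on C57BL/6J, labelled Mof-KO (KO) or wild type (WT). Kat8, the gene of Mof, codes for an acetyltransferase that acts on histone H4. These cells were given 100 nM 4-hydroxytamoxifen or ethanol for 3 days, and the labels do not state which group had which, so an effect of the drug or of active Cre cannot be told apart from the deletion. In the second experiment E14tg2a cells had etomoxir for 4 days and then 4 days without it (Released), etomoxir for 4 days (ETO), or water for 4 days (Control). Etomoxir blocks the CPT1 enzymes, which let long-chain fatty acids enter mitochondria. Its dose is not given in the sources used here, and a water group harvested together with the Released cells is not described, so time in culture and release cannot be told apart. Each group had 2 libraries, and nothing in the labels ties them to separate derivations of a line, so the p-values measure the spread between these samples only. That spread was pooled over the groups of both experiments.

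Glycolysis splits glucose into pyruvate in the cytosol. Phosphofructokinase is its main point of control, and it is activated by fructose 2,6-bisphosphate, a signal made and destroyed by the PFKFB enzymes. Lactate dehydrogenase turns pyruvate into lactate and renews the NAD+ that Gapdh needs. The pentose phosphate pathway leaves glycolysis at glucose 6-phosphate: its oxidative branch makes NADPH and its non-oxidative branch exchanges sugars with glycolysis and supplies ribose for nucleotides. Mouse embryonic stem cells are known for high glycolytic flux, alongside which cells in 2i/LIF medium also respire.

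Many glycolytic promoters carry the core of the hypoxia response element, ACGTG or GCGTG, which binds HIF factors, and the E-box CACGTG, which binds Myc, USF and carbohydrate response factors. The 250 bases upstream of a start site were searched on both strands in RefSeq's promoters for GRCm38.p6, in which 33 of the 34 genes matched 51 promoters and Slc2a3 did not. An E-box holds an ACGTG on each strand, so the motifs overlap. ACGTG was present in 31.4% of the 51 promoters, against 16.6% of 32851 promoters of all genes, GCGTG in 52.9% against 28.2%, and CACGTG in 9.80% against 6.02%. GGGCGG, a GC box, was present in 54.9% against 32.7%, and the median GC content was 58.4% against 52.4%, so the members' promoters were also richer in G and C. The next 5 promoters were chosen with the changes under etomoxir known: those of Ldha and Slc16a3, which fell most, of Pgk1, a kinase gene of lower glycolysis that also fell, and of Eno2 and Pfkfb2, which rose. Capitals mark ACGTG or GCGTG on either strand. Ldha (GRCm38.p6, chr7:46845554-46845803, plus strand) held 5 ACGTG matches, 4 of them in 2 E-boxes, Slc16a3 (chr11:120948817-120949066, plus strand) and Pgk1 (chrX:106186850-106187099, plus strand) held 2 each, and Eno2 (chr6:124769674-124769923, minus strand) held no match of either core. Pfkfb2 (chr1:130715822-130716071, minus strand) held 2 matches of each core and 1 E-box, and the promoter of Tpi1, which fell, held neither core. A second Ldha promoter (chr7:46846832-46847081) held 0 ACGTG and 1 GCGTG.
Ldha: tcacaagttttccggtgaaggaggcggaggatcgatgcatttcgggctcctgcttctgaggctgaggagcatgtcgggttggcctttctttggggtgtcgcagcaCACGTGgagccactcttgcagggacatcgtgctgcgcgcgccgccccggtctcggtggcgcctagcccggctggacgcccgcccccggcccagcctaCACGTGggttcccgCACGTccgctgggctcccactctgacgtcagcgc
Slc16a3: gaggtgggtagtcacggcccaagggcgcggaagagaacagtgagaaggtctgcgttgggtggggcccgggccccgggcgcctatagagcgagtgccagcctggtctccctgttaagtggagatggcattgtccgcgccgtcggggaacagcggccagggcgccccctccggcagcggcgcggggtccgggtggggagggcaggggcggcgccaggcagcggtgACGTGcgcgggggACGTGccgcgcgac
Pgk1: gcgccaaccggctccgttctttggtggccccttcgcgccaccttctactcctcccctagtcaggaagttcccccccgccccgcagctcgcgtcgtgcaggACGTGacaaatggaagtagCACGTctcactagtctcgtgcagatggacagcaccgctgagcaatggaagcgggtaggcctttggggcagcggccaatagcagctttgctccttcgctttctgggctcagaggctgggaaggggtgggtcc
Eno2: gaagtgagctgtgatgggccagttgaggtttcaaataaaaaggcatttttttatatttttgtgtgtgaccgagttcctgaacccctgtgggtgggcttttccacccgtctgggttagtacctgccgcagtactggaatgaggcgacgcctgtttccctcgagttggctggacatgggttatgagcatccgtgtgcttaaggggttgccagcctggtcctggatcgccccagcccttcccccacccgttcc
Pfkfb2: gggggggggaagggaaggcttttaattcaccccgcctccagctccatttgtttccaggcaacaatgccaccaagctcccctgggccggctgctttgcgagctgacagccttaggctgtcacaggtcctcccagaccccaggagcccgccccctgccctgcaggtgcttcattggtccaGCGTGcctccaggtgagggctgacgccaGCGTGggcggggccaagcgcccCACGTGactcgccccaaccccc

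The deposited gene values are normalised counts, and in each library 84.4% to 85.6% of them were whole reads (within 0.1 read) on a scale of 1 factor per library. A library summed to 10562100 to 13326200 of them. Kat8 had 222 and 205 normalised counts in KO cells, against 433 and 357 in WT cells, and the 2 groups did not overlap. Its log2 change ± standard error was -0.88 ± 0.11 (adjusted p = 3.64e-05). All such changes and adjusted p-values come from limma on log2(value + 1) over 16056 tested genes, with Benjamini-Hochberg adjustment over all of them and a call at an adjusted p under 0.05. Embryonic stem cell markers (10 genes) summed to 56414 to 56574 normalised counts in KO cells, 59347 to 61524 in WT cells, 63729 to 63936 in Released cells, 37896 to 40055 in ETO cells and 63003 to 63294 in Control cells, and 9 of the 10 fell under etomoxir. In KO against WT cells 4 were called higher (Nanog, Zfp42, Klf4 and Dppa3), 1 lower (Esrrb, -0.41) and 5 were not called. Of all tested genes, 24.6% were called higher there and 13.3% lower. Trophectoderm markers (6 genes) summed to 950.4 to 1061 in Released cells, 5236 to 5578 in ETO cells and 418 to 428 in Control cells, with Elf5 under 10 in every library. Krt8 and Krt18 made up most of the ETO sum. Of the 5 tested, 4 (Krt8, Krt18, Eomes and Gata3) were called higher in ETO than in Control cells, and Cdx2 was called lower (-2.64). Primitive endoderm markers (6 genes) summed to 579 to 661 in Released cells, 559.6 to 580.2 in ETO cells and 229 to 249.9 in Control cells, with Sox17 and Sox7 under 10 throughout. Dab2 made up most of the Released sum, while Gata4, Gata6 and Foxa2 were highest in ETO cells and called lower in Released against ETO cells. In the first experiment trophectoderm markers summed to 315 to 379 in KO cells and 244 to 305 in WT cells, and primitive endoderm markers to 95.6 to 101 in KO cells and 104 to 107 in WT cells. Among the 5 tested trophectoderm markers only Eomes was called there, higher in KO cells (1.27). Among the 4 tested primitive endoderm markers, Dab2 was called higher (1.95), Gata4 lower (-0.73) and 2 were not called. Dab2 was low, at 12.1 and 27.5 normalised counts in KO cells and 7.40 and 1.96 in WT cells. Mesoderm markers (4 genes) summed to 203 to 231 in Released cells, 27.4 to 39.5 in ETO cells and 185 to 209.7 in Control cells, with Mesp1 under 10 throughout. T made up most of the Released and Control sums. Of the 3 tested, T was called lower in ETO than in Control cells (-4.40), Tbx6 was called higher (2.78) and Mixl1 was not called. Tbx6 had 26.7 and 9.96 normalised counts in ETO cells and 1.10 and 2.08 in Control cells, the latter under the level of 3 reads. Fibroblast markers (8 genes) summed to 61.5 to 67.3 in KO cells, 75.6 to 90.7 in WT cells, 121 to 126 in Released cells, 184 to 190.8 in ETO cells and 105 to 105.7 in Control cells. Of the 3 tested, Col1a1 was called higher in ETO than in Control cells (1.91), Pdgfrb was called lower (-1.09) and Thy1 was not called. Col1a2, Col3a1, Postn and Dcn were under 10 throughout, and no marker was at 0 in all libraries. Mitochondrial rows made up 0.588% to 0.761% of an ETO library and 3.34% to 3.39% of a Control library. The part of these differences in the results below was not tested, and in bulk RNA fewer cells of a type and less RNA per cell cannot be told apart.

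Several of the enzymes have processed pseudogenes, and how reads that match several places were counted is not given in the sources used here. Of the 50-base windows of a gene's longest protein-coding transcript, the share that also occurred in another annotated gene with up to 2 mismatches was 85.5% for Eno1, 85.0% for Gapdh, 68.4% for Pgk1, 66.9% for Ldhb, 64.6% for Pkm, 57.8% for Aldoa, 53.3% for Gpi1 and 49.3% for Ldha. It was 0 for 10 genes, among them Pfkm, Slc16a3, Pgd and Rpia. Gapdh had 119 copies, 115 of them annotated pseudogenes, and over the 10 libraries its own row averaged 381 normalised counts while the rows of its copies together averaged 487. Gpi1 averaged 4973 and its copy Gm1840 averaged 3887. The levels of the genes with shared windows are therefore uncertain, and changes are given with the copies' rows added where that moved them by more than 1.5 times, which among called changes occurred for Gapdh alone.

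**Figure D1:**
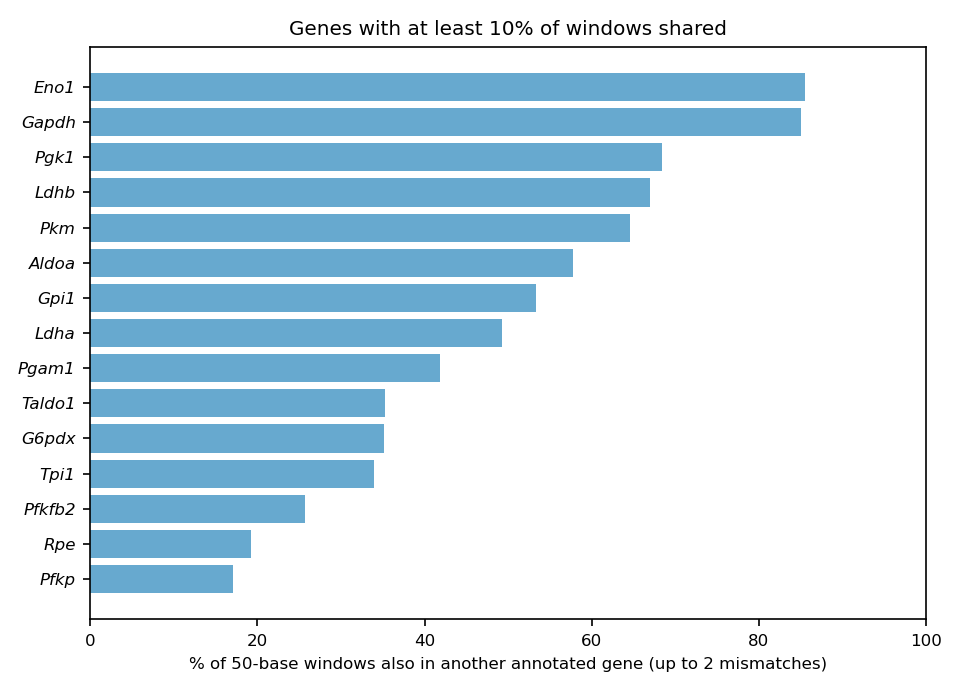
Percentage of a gene's 50-base windows (x axis) that also occurred in another annotated gene with up to 2 mismatches, for the genes with at least 10%. Bars are single values without error; Eno1 (85.5%) and Gapdh (85.0%) stand highest.

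Most of the pathway was lower in ETO than in Control cells and higher in Released than in ETO cells. Of the 34 genes, 7 rose and 24 fell in ETO against Control cells, where 60.8% of all 16056 tested genes were called, 26.8% higher and 34% lower. The median log2 change of the 34 was -0.58, against -0.09 for all tested genes. In Released against ETO cells 23 rose and 7 fell, beside 33.1% and 24.6% of all genes (57.7% in either direction), with a median of 0.37 against 0.10. In Released against Control cells 0 rose and 7 fell, beside 7.03% and 5.51% of all genes (12.5% in either direction), with a median of -0.13 against 0.01. For the count of 0, 3 genes (Eno2, Pgd and Rpe) were higher at an unadjusted p under 0.05, and the alternative fits called 0 to 3 higher. Under all 22 alternative settings 25 of the 31 etomoxir calls held (all but Pfkfb1, Pfkfb4, Tigar, Taldo1, Rpia and Rpe), 21 of the 30 of Released against ETO cells, and 3 of the 7 of Released against Control cells (Slc2a3, Ldha and Ldhb). These comparisons share the ETO or the Control libraries, so a gene's changes in them are not independent. With total signal as the scaling factor, the share of all calls that were higher was 57.0% in place of 44.1% for ETO against Control, 45.8% in place of 57.4% for Released against ETO and 66.5% in place of 56.1% for Released against Control.

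**Figure D2:**
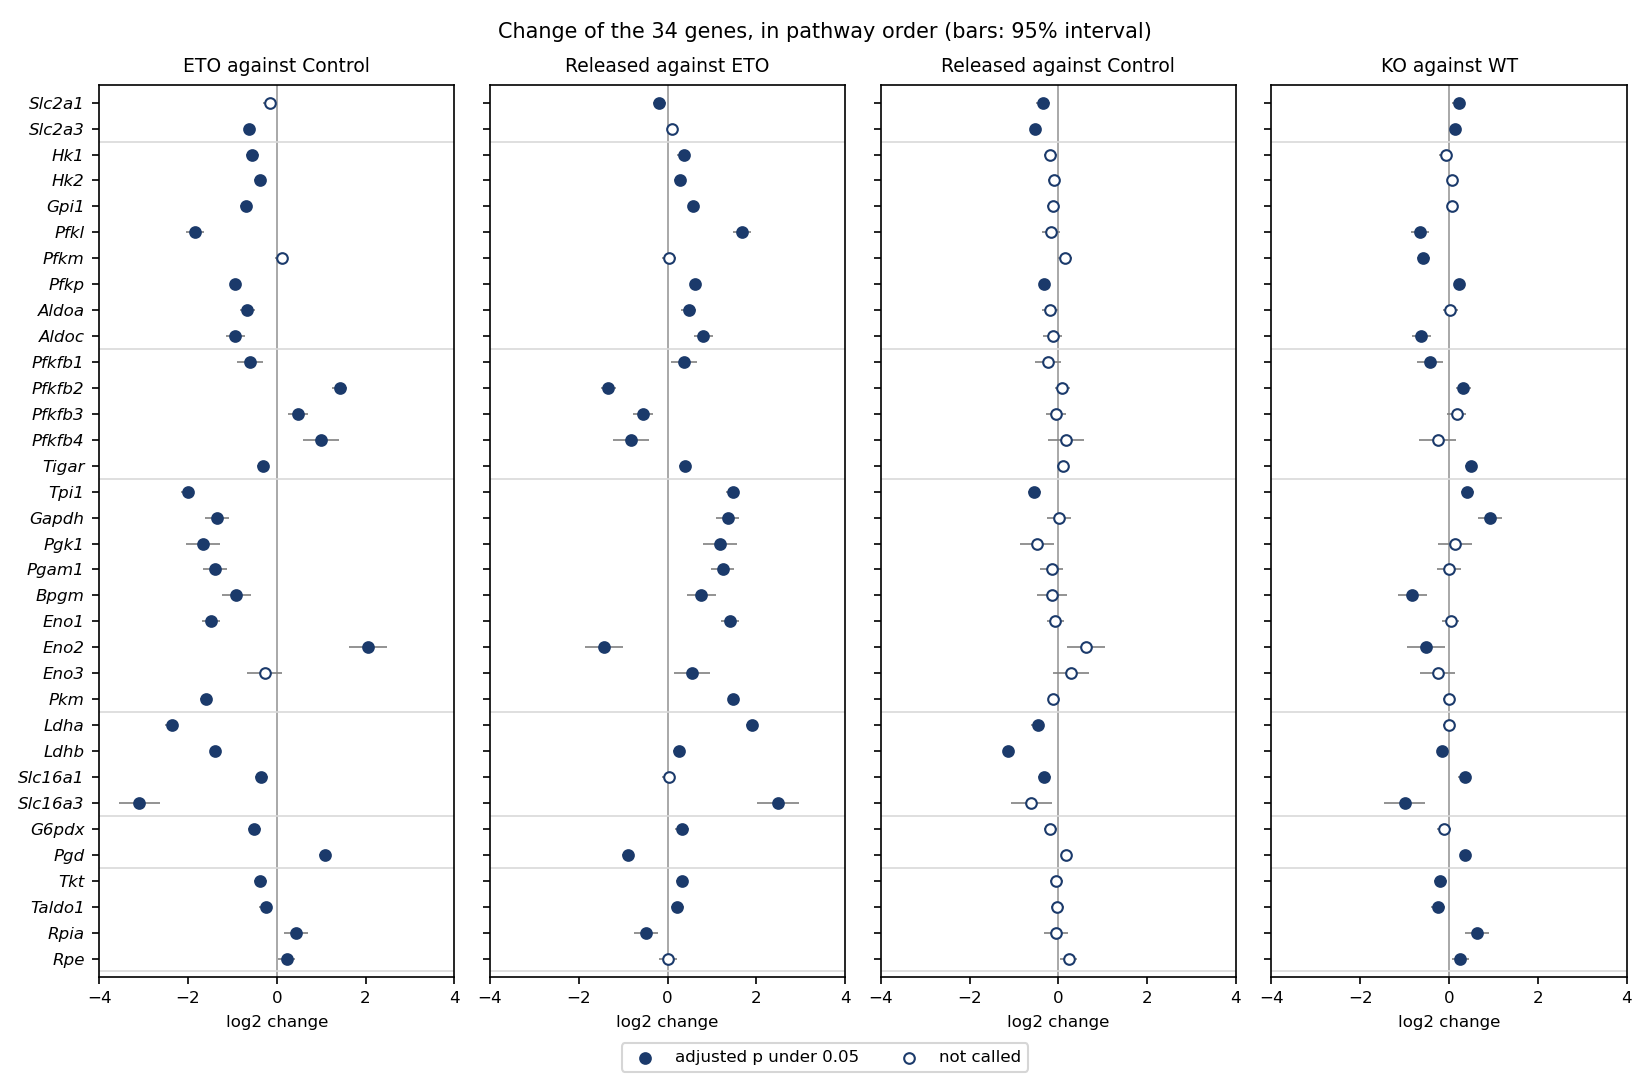
Log2 change of each of the 34 genes (x axis) in pathway order from transport at the top to the non-oxidative pentose phosphate branch at the bottom, in 4 comparisons. Points are fitted changes with 95% intervals, filled where the adjusted p was under 0.05; in ETO against Control cells 24 genes lie left of 0 as filled points and Eno2, Pfkfb2, Pfkfb4 and Pgd lie farthest to the right.

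Of the 2 glucose transporters, Slc2a3 fell under etomoxir, and both were lower in Released than in Control cells. Slc2a3, the high-affinity transporter GLUT3, had 14235 and 14138 normalised counts in Released cells, 12949.5 and 13441 in ETO cells and 20449.9 and 20123 in Control cells. Both treated groups lay below Control without overlap, with a change of -0.62 ± 0.044 (adjusted p = 8.97e-09) under etomoxir and -0.52 ± 0.044 (adjusted p = 3.31e-06) in Released against Control cells. Its change in Released against ETO cells was 0.10 with a 95% interval of 0.011 to 0.20, which missed the threshold (adjusted p = 0.0522). Slc2a1, the basal transporter GLUT1, had 2942 and 2840.4 normalised counts in Released cells, 3126 and 3456 in ETO cells and 3683 and 3651 in Control cells. It was lowest in Released cells, at -0.34 ± 0.071 (adjusted p = 0.004999) against Control and -0.19 ± 0.071 (adjusted p = 0.0350) against ETO cells. The call against Control was lost without either Control library or Released replicate 2 (-0.35 to -0.32, adjusted p = 0.0504 to 0.0728). The call against ETO was lost without either Control or Released library or ETO replicate 2 (-0.21 to -0.11, adjusted p = 0.0562 to 0.286, nearest to 0 without ETO replicate 2). On FPKM values neither was called (-0.17 against Control and -0.050 against ETO cells). Its difference between ETO and Control cells was -0.16, not called (adjusted p = 0.0657).

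In upper glycolysis, which primes glucose with phosphate and splits it, 7 of 8 genes fell under etomoxir, beside 34% of all tested genes. The median log2 change of the 8 was -0.68. Pfkl, the liver-type phosphofructokinase, had 1509 and 1519 normalised counts in Released cells, 432 and 522 in ETO cells and 1649 and 1748 in Control cells. It was lowest in ETO cells without overlap, with a change of -1.84 ± 0.096 (adjusted p = 3.41e-10), and rose by 1.67 ± 0.096 (adjusted p = 1.32e-09) after release. Pfkp, the platelet type, had 3373 and 3375 normalised counts in Released cells, 2183 and 2192 in ETO cells and 4224 and 4165 in Control cells, and its change under etomoxir was -0.94 ± 0.052 (adjusted p = 6.82e-10). The muscle-type isozyme Pfkm had 823 and 869 normalised counts in Released cells, 801 and 851 in ETO cells and 743 and 789 in Control cells, and ETO cells differed from Control by 0.11 with a 95% interval of -0.046 to 0.26 (adjusted p = 0.210), while the 3 other scalings called it higher. Of the 3 subunits of this enzyme, 2 were thus called lower in ETO cells and 1 was not called. Hk2, a hexokinase found on mitochondria, had 3811 and 3839.9 normalised counts in Released cells, 2996 and 3357 in ETO cells and 4069.5 and 4147 in Control cells. It and Hk1, which both trap glucose as its 6-phosphate, were lowest in ETO cells, where Hk1 and Hk2 fell by 0.55 ± 0.067 (adjusted p = 4.22e-06) and 0.37 ± 0.061 (adjusted p = 7.63e-05) on the log2 scale. Gpi1, the isomerase that follows them, changed by -0.70 ± 0.056 (adjusted p = 3.44e-08). Aldoa had 12033 and 11563 normalised counts in Released cells, 8272 and 8664 in ETO cells and 13457 and 13413 in Control cells. The aldolases Aldoa and Aldoc, which cut fructose 1,6-bisphosphate, changed by -0.67 and -0.93. All 7 genes that fell were called higher in Released against ETO cells, by 0.27 (Hk2) to 1.67 (Pfkl), and of the 8 only Pfkp was called lower than Control (-0.31 ± 0.052, adjusted p = 0.00118), although not on FPKM values. With 1 fit per experiment Hk1 (-0.18), Gpi1 (-0.13) and Aldoa (-0.19) were also called lower than Control, and with a replicate block Hk1 and Aldoa. On FPKM values the rises of Hk1 and Hk2 after release were not called either, and that of Hk2 was also not called with total signal as the scaling factor (0.14).

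The genes that set fructose 2,6-bisphosphate moved in both directions under etomoxir, with 3 of 5 higher and 2 lower. Of all tested genes, 26.8% were called higher and 34% lower. Pfkfb2, a kinase and phosphatase known from heart, had 615 and 685 normalised counts in Released cells, 1687 and 1579.8 in ETO cells and 609 and 607 in Control cells. The ETO libraries were far above the other 4, by 1.42 ± 0.079 (adjusted p = 6.16e-10) against Control, and after release the gene fell by 1.33 ± 0.079 (adjusted p = 1.77e-09). Pfkfb3, the isozyme with the strongest kinase activity, had 221 and 243 normalised counts in Released cells, 317 and 360.3 in ETO cells and 244 and 239 in Control cells, and Pfkfb4 had 71.6 and 99.6 normalised counts in Released cells, 162 and 138 in ETO cells and 71.5 and 77.8 in Control cells. Both were highest in ETO cells, at 0.48 and 0.99 against Control, although the rise of Pfkfb4 was not called on FPKM values. Pfkfb1, known from liver and muscle, fell by 0.61 ± 0.14 (adjusted p = 0.00120) under etomoxir and rose by 0.37 ± 0.14 (adjusted p = 0.0287) after release. That rise was lost without either ETO library or Released replicate 1 (0.24 to 0.41, adjusted p = 0.0619 to 0.246, lowest without Released replicate 1), under the 3 other scalings (0.24 to 0.28) and on FPKM values (0.12), and the fall was not called on FPKM values. Tigar, a phosphatase that lowers fructose 2,6-bisphosphate and favours the pentose phosphate pathway, changed by -0.30 ± 0.063 (adjusted p = 7.12e-04) under etomoxir and 0.40 ± 0.063 (adjusted p = 6.35e-05) after release, the first not called with total signal as the scaling factor or on FPKM values. None of the 5 was called in Released against Control cells, where their changes ran from -0.23 (Pfkfb1) to 0.18 (Pfkfb4).

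Lower glycolysis, which yields ATP and pyruvate, had 7 of its 9 genes lower in ETO cells, beside 34% of all tested genes. The median log2 change of the 9 was -1.39. Tpi1, triose phosphate isomerase, had 2151 and 2141 normalised counts in Released cells, 821 and 729 in ETO cells and 3122 and 3103 in Control cells. The ETO values were the lowest and the Released values lay between the other groups without overlap, with changes of -2.01 ± 0.069 (adjusted p = 5.12e-12) under etomoxir, 1.47 ± 0.069 (adjusted p = 1.70e-10) after release and -0.54 ± 0.069 (adjusted p = 1.65e-04) in Released against Control cells, the last not called on FPKM values. Gapdh, which makes NADH, had 590.1 and 555 normalised counts in Released cells, 238 and 209 in ETO cells and 566 and 569 in Control cells. It was lowest in ETO cells and overlapped between Released and Control cells, with a change of -1.34 ± 0.12 (adjusted p = 1.78e-07) under etomoxir. Pkm, which encodes the pyruvate kinase of most tissues, had 12649 and 12846 normalised counts in Released cells, 4541 and 4557 in ETO cells and 13878 and 13762 in Control cells. Its ETO libraries were far below the other 4, at -1.603 ± 0.056 (adjusted p = 5.68e-12) against Control and 1.49 ± 0.056 (adjusted p = 1.73e-11) in Released against ETO cells. Pgk1, which makes ATP, had 221 and 227 normalised counts in Released cells, 95.9 and 101 in ETO cells and 340.1 and 287 in Control cells. Pgam1, the mutase after it, had 271 and 284 normalised counts in Released cells, 112 and 122 in ETO cells and 318 and 298 in Control cells. Both were lowest in ETO cells without overlap. Pgk1 changed by -1.66 ± 0.18 (adjusted p = 1.37e-06) under etomoxir, Pgam1 by -1.39 ± 0.12 (adjusted p = 1.30e-07) and the red-cell-type mutase Bpgm by -0.91 ± 0.16 (adjusted p = 1.13e-04), and all 3 were called higher after release.

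The enolases, which act just before pyruvate kinase, moved in opposite directions. Eno1, the ubiquitous isozyme, had 1269 and 1236 normalised counts in Released cells, 449 and 495 in ETO cells and 1281 and 1350.2 in Control cells. Eno2, known as the neuronal isozyme, had 39.3 and 33.98 normalised counts in Released cells, 101 and 99.6 in ETO cells and 22.02 and 24.9 in Control cells. ETO cells were lowest for Eno1 and highest for Eno2, with changes of -1.48 ± 0.091 (adjusted p = 1.94e-09) and 2.05 ± 0.20 (adjusted p = 3.21e-07) under etomoxir and 1.41 ± 0.091 (adjusted p = 4.35e-09) and -1.43 ± 0.20 (adjusted p = 1.76e-05) after release. Eno3, the muscle isozyme, had 114 and 113 normalised counts in Released cells, 87.3 and 68.1 in ETO cells and 103 and 83.9 in Control cells. Its ETO and Control values overlapped, and its rise after release (0.55 ± 0.19, adjusted p = 0.0187) was lost without ETO replicate 2 or either Released library (0.38 to 0.56, adjusted p = 0.0690 to 0.176). Neural markers (3 with a row of 4) summed to 281 to 285.1 normalised counts in Released cells, 714 to 725.5 in ETO cells and 214 to 236 in Control cells. Nes made up most of each sum and was called higher in ETO than in Control cells (1.83), while Sox1 and Pax6 were not called. The part of these markers in the Eno2 result was not tested.

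All 4 genes of lactate production and export fell under etomoxir, beside 34% of all tested genes. The largest falls of the pathway were among them. Ldha, the muscle-type subunit, had 4116 and 4067 normalised counts in Released cells, 1031 and 1158 in ETO cells and 5676 and 5631 in Control cells. The ETO values were lowest and the Released values stayed below Control without overlap, with changes of -2.37 ± 0.065 (adjusted p = 4.62e-13), 1.904 ± 0.065 (adjusted p = 6.83e-12) after release and -0.47 ± 0.065 (adjusted p = 3.14e-04) in Released against Control cells. Ldhb, the heart-type subunit, had 1764 and 1711 normalised counts in Released cells, 1464 and 1459.6 in ETO cells and 3836 and 3808 in Control cells. It fell under etomoxir by 1.39 ± 0.055 (adjusted p = 1.62e-11) and rose by 0.25 ± 0.055 (adjusted p = 0.00110) after release, so that Released cells lay far below Control without overlap (-1.14 ± 0.055, adjusted p = 1.31e-08). That rise was not called with total signal as the scaling factor. Slc16a3, the lactate exporter MCT4, had 176 and 164 normalised counts in Released cells, 21.7 and 39.9 in ETO cells and 239 and 281 in Control cells. It fell by 3.09 ± 0.22 (adjusted p = 9.50e-09), the largest fall of the 34, and rose by 2.49 ± 0.22 (adjusted p = 1.29e-07) after release, to values between those of ETO and Control cells. Slc16a1, the transporter MCT1, had 1837 and 1939 normalised counts in Released cells, 1833 and 1865 in ETO cells and 2377 and 2331 in Control cells. It was lower than Control in both ETO (-0.35 ± 0.068, adjusted p = 3.93e-04) and Released cells (-0.32 ± 0.068, adjusted p = 0.00656), with a change of 0.030 between them that was not called (95% interval -0.12 to 0.18). The call in Released against Control cells was lost without either Control library or Released replicate 1 (-0.33 to -0.28, adjusted p = 0.0519 to 0.0945).

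The pentose phosphate genes had mixed and mostly smaller changes. Pgd, which makes NADPH and ribulose 5-phosphate in the oxidative branch, had 4887 and 4752 normalised counts in Released cells, 8778 and 9190.4 in ETO cells and 4205 and 4277 in Control cells. ETO cells were highest without overlap, at 1.08 ± 0.058 (adjusted p = 4.57e-10) against Control, and the gene fell after release (-0.90 ± 0.058, adjusted p = 4.59e-09). G6pdx, which catalyses the first step of the branch, had 1156 and 1099 normalised counts in Released cells, 883 and 917 in ETO cells and 1336 and 1217 in Control cells. Its ETO values were the lowest, at -0.50 ± 0.072 (adjusted p = 2.13e-05) against Control, and thus 1 of the 2 enzymes of the oxidative branch rose and the other fell. In the non-oxidative branch, transketolase Tkt had 7765 and 7682 normalised counts in Released cells, 5996 and 6362 in ETO cells and 7874 and 8058 in Control cells. Its ETO values were the lowest, with changes of -0.37 ± 0.066 (adjusted p = 1.71e-04) under etomoxir and 0.32 ± 0.066 (adjusted p = 5.98e-04) after release. Transaldolase Taldo1 changed by -0.25 ± 0.069 (adjusted p = 0.00640) under etomoxir, a call lost without Control replicate 1 or ETO replicate 1 (-0.21 to -0.17, adjusted p = 0.0727 to 0.0907), and by 0.22 ± 0.069 (adjusted p = 0.0133) after release, lost without ETO replicate 1 or Released replicate 2 (0.15 to 0.19, adjusted p = 0.111 to 0.151). Both Taldo1 calls were also lost under the 3 other scalings (-0.15 to -0.076 under etomoxir and 0.086 to 0.13 after release).

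The isomerase Rpia, which makes ribose 5-phosphate, had 207 and 240.2 normalised counts in Released cells, 336 and 292 in ETO cells and 221 and 245 in Control cells. ETO cells were above Control by 0.43 ± 0.13 (adjusted p = 0.00890), a call lost without Control replicate 1 or ETO replicate 1 (0.33 to 0.35, adjusted p = 0.0791 to 0.0992). Its fall after release (-0.49 ± 0.13, adjusted p = 0.00406) was lost without ETO replicate 1 or Released replicate 1 (-0.39 to -0.38, adjusted p = 0.0580 to 0.0594). The epimerase Rpe rose by 0.22 ± 0.092 (adjusted p = 0.0479) under etomoxir, a call lost when any 1 of the 6 libraries of this experiment was left out (0.17 to 0.28, adjusted p = 0.0599 to 0.248). None of the 6 pentose phosphate genes was called in Released against Control cells, where their changes ran from -0.18 (G6pdx) to 0.23 (Rpe). Pgd was nevertheless higher in Released than in Control cells without overlap (0.18). It was called higher with median-of-ratios or total-signal factors, a pseudocount of 10 or a filter of at least 50. With 1 fit per experiment Pgd and Rpe were called higher and G6pdx lower, and a replicate block called Pgd and Rpe higher.

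**Figure D3:**
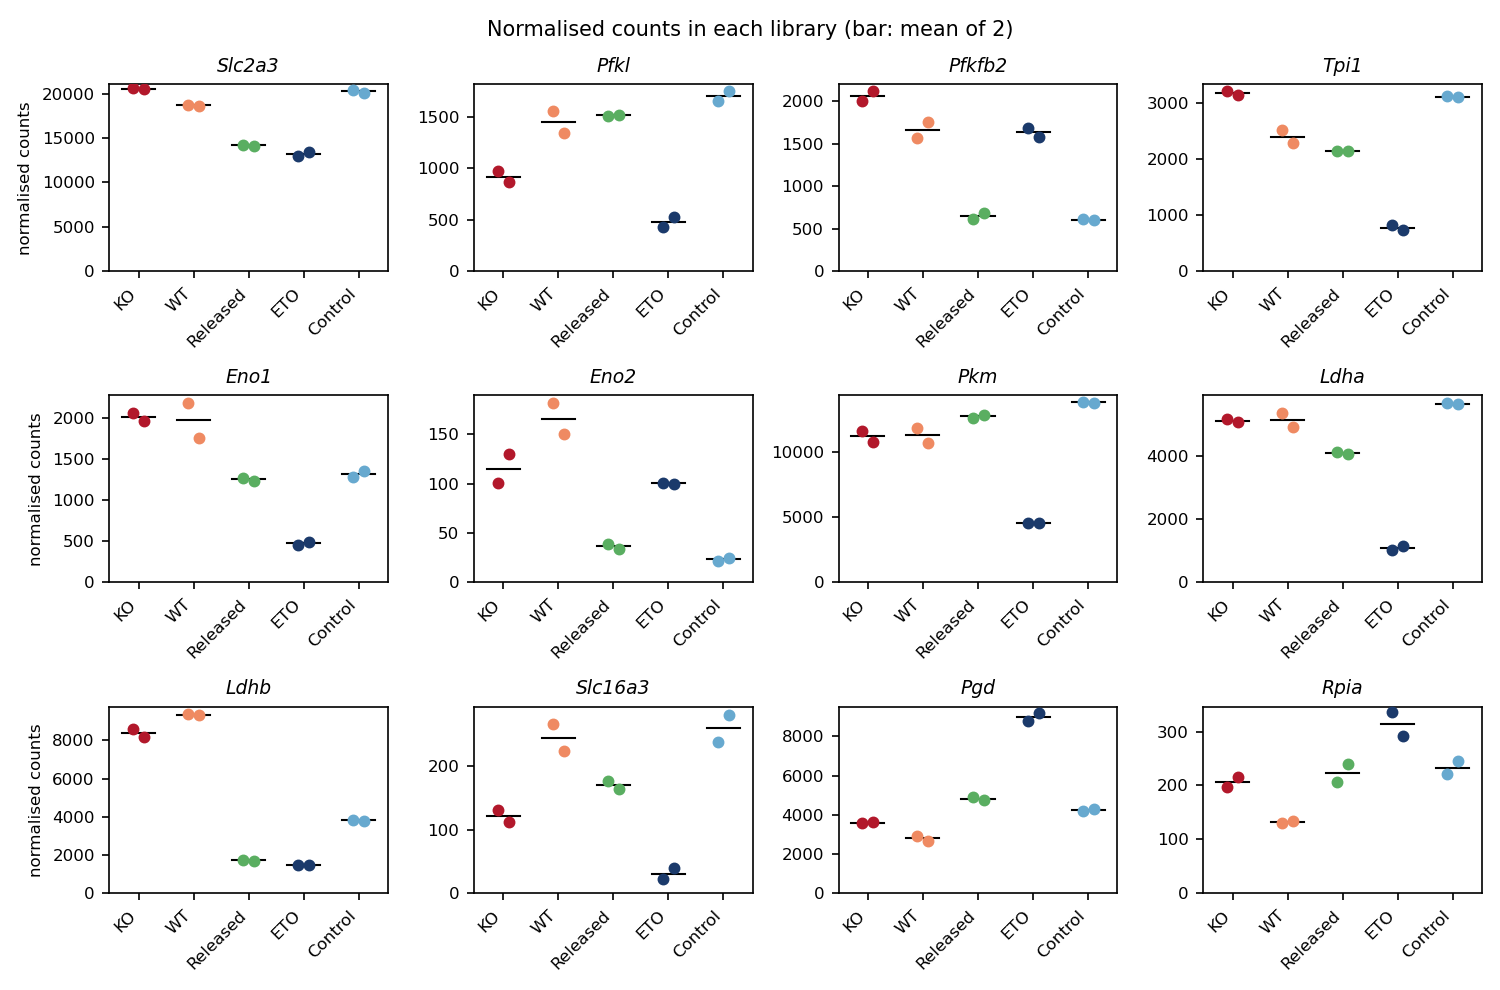
Normalised counts (y axis, from 0) of 12 of the genes in each of the 10 libraries, with points for libraries and bars for group means. ETO libraries lie below Released and Control for Pfkl, Tpi1, Eno1, Pkm, Ldha and Slc16a3 and above them for Pfkfb2, Eno2, Pgd and Rpia; for Ldhb, ETO and Released both lie far below Control.

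In KO cells the members were divided between rises and falls. Of the 34 genes, 11 rose and 10 fell in KO against WT cells, beside 24.6% and 13.3% of all tested genes (37.9% in either direction), and the median log2 change was 0.01, against 0.08 for all tested genes. With total signal as the scaling factor, 6 of the 34 rose and 14 fell, and 37.0% of all calls were higher in place of 64.8%. The other scalings gave 52.4% (median of ratios) and 52.9% (TMM). Under all 22 alternative settings, 10 of the 21 calls held: Tigar, Tpi1, Gapdh, Slc16a1 and Pgd were higher, and Pfkl, Pfkm, Aldoc, Bpgm and Slc16a3 were lower.

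Slc16a3 had the largest fall of the 34 in KO cells. It had 132 and 113 normalised counts in KO cells, against 267 and 224 in WT cells. Both KO libraries lay below both WT libraries, with a log2 change of -0.998 ± 0.22 (adjusted p = 0.00228). The other transporter of lactate, Slc16a1, had 3097 and 3235 normalised counts in KO cells, against 2328 and 2649 in WT cells, higher in KO cells without overlap by 0.35 ± 0.068 (adjusted p = 9.88e-04). Ldha had 5151 and 5071 normalised counts in KO cells, against 5364 and 4903 in WT cells, and its change of -0.0048 had a 95% interval of -0.14 to 0.13 (adjusted p = 0.968). With total signal as the scaling factor Ldha was called lower (-0.17). For Ldhb the fall was small (-0.15 ± 0.055, adjusted p = 0.0364) and was lost without WT replicate 1, KO replicate 2, either Control library or either Released library (-0.15 to -0.12, adjusted p = 0.0589 to 0.216).

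Of the phosphofructokinase subunits, 2 were lower and 1 was higher in KO cells. Pfkl had 969 and 863 normalised counts in KO cells, against 1553 and 1341 in WT cells. Pfkm had 893 and 876 normalised counts in KO cells, against 1327 and 1315 in WT cells. Pfkp had 7337 and 7560.3 normalised counts in KO cells, against 6288 and 6466 in WT cells. KO cells were lower for Pfkl (-0.66 ± 0.096, adjusted p = 9.69e-05) and Pfkm (-0.58 ± 0.073, adjusted p = 2.71e-05) and higher for Pfkp (0.22 ± 0.052, adjusted p = 0.00354), the last not called with total signal as the scaling factor or on FPKM values. Among regulators of the step, Tigar had 1988 and 1959.6 normalised counts in KO cells, against 1413 and 1372 in WT cells, higher in KO cells without overlap by 0.50 ± 0.063 (adjusted p = 2.68e-05). Pfkfb2 rose by 0.32 ± 0.079 (adjusted p = 0.00516), which was not called with total signal or on FPKM values. Pfkfb1 fell by 0.42 ± 0.14 (adjusted p = 0.0245), a call that needed both WT replicate 1 and KO replicate 2 (-0.35 to -0.33, adjusted p = 0.135 to 0.151 without them). Pfkfb3 (0.17) and Pfkfb4 (-0.26) were not called.

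In lower glycolysis 2 of 9 genes rose and 2 fell in KO cells, beside 37.9% of all tested genes called. Gapdh had 346 and 360.1 normalised counts in KO cells, against 214 and 161 in WT cells. KO cells were higher without overlap, by 0.92 ± 0.12 (adjusted p = 4.87e-05). With the rows of its copies added, the rise was 0.42 (adjusted p = 9.16e-04). Tpi1 had 3205 and 3149 normalised counts in KO cells, against 2512 and 2289 in WT cells, higher in KO cells by 0.41 ± 0.069 (adjusted p = 3.59e-04). Bpgm, which makes 2,3-bisphosphoglycerate in red cells, had 121 and 129.6 normalised counts in KO cells, against 238 and 210.1 in WT cells, lower in KO cells without overlap (-0.83 ± 0.16, adjusted p = 7.00e-04). Aldoc, the brain-type aldolase of the upper part, had 478 and 445 normalised counts in KO cells, against 731 and 694 in WT cells, with a change of -0.63 ± 0.10 (adjusted p = 2.03e-04). Eno2 fell by 0.53 ± 0.20 (adjusted p = 0.0497), a call lost in 9 of the 10 fits that left out 1 library, all but the fit without KO replicate 2 (-0.66 to -0.35, adjusted p = 0.0503 to 0.284, nearest to 0 without KO replicate 1). The housekeeping steps Pgk1 (0.13), Pgam1 (0.0051), Eno1 (0.039) and Pkm (-0.011) were not called. With total signal as the scaling factor Pkm was called lower (-0.18), and the Pgk1 change was 0.47 without WT replicate 1.

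The 2 glucose transporters rose slightly. Slc2a1 had 1885 and 1801 normalised counts in KO cells, against 1683 and 1491 in WT cells, and Slc2a3 had 20651 and 20486 normalised counts in KO cells, against 18772 and 18605 in WT cells. The changes were 0.22 ± 0.071 (adjusted p = 0.0242) and 0.14 ± 0.044 (adjusted p = 0.0212). Both calls were lost under every other scaling, with the sign of Slc2a3 turned by total signal (-0.028) and both signs turned on FPKM values (-0.038 for Slc2a1, -0.0040 for Slc2a3). The Slc2a1 call needed both WT replicate 2 and KO replicate 1 (0.13 to 0.18, adjusted p = 0.132 to 0.152 without them, lowest without WT replicate 2), and that of Slc2a3 was lost without either KO library (0.13 to 0.14, adjusted p = 0.0720 to 0.0923).

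Of the 6 pentose phosphate genes, 3 rose and 2 fell in KO cells, beside 24.6% and 13.3% of all tested genes. Pgd had 3600.2 and 3606 normalised counts in KO cells, against 2938 and 2678 in WT cells, a change of 0.36 ± 0.058 (adjusted p = 2.22e-04) with no overlap. Rpia had 196 and 216 normalised counts in KO cells, against 129.6 and 135 in WT cells, with a change of 0.64 ± 0.13 (adjusted p = 0.00118) that was not called on FPKM values. Rpe rose by 0.26 ± 0.092 (adjusted p = 0.0388), lost without WT replicate 1, KO replicate 2, either Control library or either Released library (0.13 to 0.26, adjusted p = 0.0561 to 0.332, lowest without WT replicate 1), and its change was 0.39 without WT replicate 2. The Rpe call was also lost with median-of-ratios (0.18), TMM (0.18) and total-signal factors (0.090) and on FPKM values (0.071). Tkt fell by 0.19 ± 0.066 (adjusted p = 0.0295), lost without WT replicate 1, KO replicate 2, either Control library or Released replicate 1 (-0.19 to -0.11, adjusted p = 0.05004 to 0.273, nearest to 0 without WT replicate 1 and -0.12 without KO replicate 2). Taldo1 fell by 0.25 ± 0.069 (adjusted p = 0.0105), lost without WT replicate 1 or KO replicate 1 (-0.22 to -0.20, adjusted p = 0.05001 to 0.0725). G6pdx differed by -0.12, not called (adjusted p = 0.219) except with median-of-ratios, TMM and total-signal scaling.

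The change in KO cells differed from the change under etomoxir for most members. The KO change was higher than the ETO change for 20 genes and lower for 5, beside 32.3% and 22.2% of all tested genes (54.5% in either direction). The median difference was 0.46, against 0.13 for all tested genes. Higher calls were 59.3% of all calls, in place of 46.7% with median-of-ratios, 48.1% with TMM and 35.9% with total-signal factors. Under all 21 alternative settings 21 of the 25 calls held, all but Slc2a1, Hk1, Hk2 and G6pdx. The experiments used different cells and agents, so line, agent and experiment cannot be told apart in this difference. Tpi1 differed most among those higher, with 0.41 in KO cells, -2.01 under etomoxir and a difference of 2.41 ± 0.098 (adjusted p = 1.70e-10). Ldha differed by 2.37 ± 0.092 (adjusted p = 1.29e-10), Gapdh by 2.27 ± 0.18 (adjusted p = 6.01e-08) and Slc16a3, which fell in both experiments, by 2.096 ± 0.31 (adjusted p = 3.87e-05). For Gapdh the difference was 1.73 with the rows of its copies added. The KO change was below the ETO change for Eno2 (-2.58 ± 0.28, adjusted p = 1.97e-06), Pfkfb4 (-1.25 ± 0.27, adjusted p = 0.00111), Pfkfb2 (-1.11 ± 0.11, adjusted p = 8.38e-07), Pgd (-0.72 ± 0.082, adjusted p = 3.05e-06) and Pfkm (-0.69 ± 0.10, adjusted p = 4.33e-05). Pgd and Pfkfb2 rose in both experiments. The difference was not called for Bpgm (0.077, 95% interval -0.39 to 0.54), Aldoc (0.30, 0.0015 to 0.60), Rpia (0.21, -0.17 to 0.60), Rpe (0.034), Tkt (0.17), Taldo1 (-0.0044), Pfkfb1 (0.19), Pfkfb3 (-0.32) and Eno3 (0.012). Pfkfb3 was called lower under the 3 other scalings (-0.65 to -0.48), Taldo1 lower with total signal (-0.34), and Tkt higher without WT replicate 1 or KO replicate 2 and with a replicate block.

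**Figure D4:**
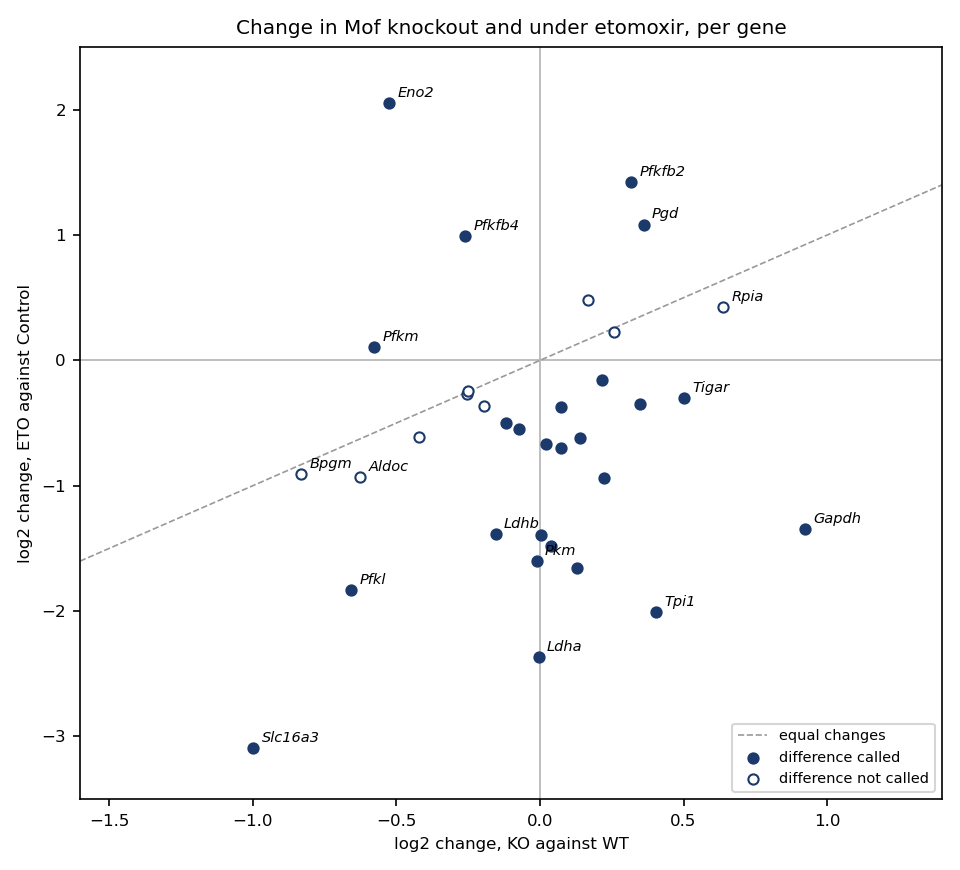
Log2 change in KO against WT cells (x axis) and in ETO against Control cells (y axis) for each of the 34 genes, with filled points where the difference between the 2 changes had an adjusted p under 0.05. The dashed line marks equal changes; Ldha, Tpi1, Gapdh and Slc16a3 lie far below it and Eno2 far above it.

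Isozymes were compared as shares of the summed FPKM (fragments scaled by gene length and by library) of the listed members of a family, because counts of genes of different length cannot be compared. FPKM per normalised count of one gene was not constant over the libraries, with a highest value 1.00 to 2.59 times the lowest and a median of 1.27. With 2 libraries a group no permutation test can reach 0.05, so the shares are given without a test. For phosphofructokinase, the Pfkl share was 18.7% and 13.5% in KO cells, against 22.3% and 23.1% in WT cells. It was 34.7% and 32.9% in Released cells, 18.6% and 17.6% in ETO cells and 36.7% and 32.1% in Control cells. The Pfkm share was 10.7% and 10.5% in KO cells, against 14.9% and 15.1% in WT cells, and 12.99% and 14.9% in Released cells, 22.96% and 22.7% in ETO cells and 10.6% and 11.3% in Control cells. Pfkm was thus lower in KO than in WT cells and higher in ETO than in Control cells, and Pfkp held the largest share in every library, from 52.2% in a Released library to 75.98% in a KO library.

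Of the PFKFB FPKM, Pfkfb2 made up 62.3% and 61.7% in KO cells, against 49.97% and 51.9% in WT cells, and 43.7% and 40% in Released cells, 61.9% and 62.3% in ETO cells and 38.7% and 37.97% in Control cells. It was the largest share in all 10 libraries and higher in KO and ETO cells than in WT and Control cells. Of lactate dehydrogenase, Ldha made up 23.3% and 23.6% in KO cells, against 21.1% and 21.6% in WT cells, and 50.9% and 50.7% in Released cells, 24.9% and 26.3% in ETO cells and 40.5% and 39.3% in Control cells. Ldhb was thus the major subunit by FPKM except in Released cells, where the 2 were near equal. The shared windows of both genes leave this ranking uncertain. Of the 2 lactate transporters, Slc16a3 made up 8.45% and 6.92% in KO cells, against 21.6% and 19.2% in WT cells, and 21.8% and 14.8% in Released cells, 1.99% and 4.89% in ETO cells and 21.1% and 23.8% in Control cells. Its share was lower in ETO than in Released and Control cells and lower in KO than in WT cells, without overlap.

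The enolase share of Eno2 was 1.28% and 1.11% in Released cells, 9.07% and 8.83% in ETO cells and 0.5505% and 0.945% in Control cells, and Eno1 held 75.6% or more in every library. The shared windows of Eno1 (85.5%) leave the size of these shares uncertain. Its own row averaged 1404 normalised counts and the rows of its copies together 440. Aldoa held 88.5% or more of aldolase, with an Aldoc share of 5.94% and 6.08% in KO cells, against 8.71% and 11.5% in WT cells. Between the hexokinases, Hk1 had 64.7% and 61.7% in KO cells, against 69.1% and 66.01% in WT cells, and 49.1% and 45.1% in Released cells, 48.8% and 46.7% in ETO cells and 46.2% and 51.8% in Control cells, where the E14tg2a groups overlapped. Slc2a3 outweighed Slc2a1 everywhere, with a Slc2a1 share of 9.82% and 9.77% in KO cells, against 11.2% and 8.89% in WT cells, and 20.4% and 20.2% in Released cells, 21.3% and 22.4% in ETO cells and 16.5% and 17.9% in Control cells. For Pfkl, Pfkm, Pfkfb2, Ldha and Slc16a3, shares of the normalised counts of the family lay on the same side in KO against WT and in ETO against Control cells as the FPKM shares, and likewise for Eno2 in ETO against Control cells.

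**Figure D5:**
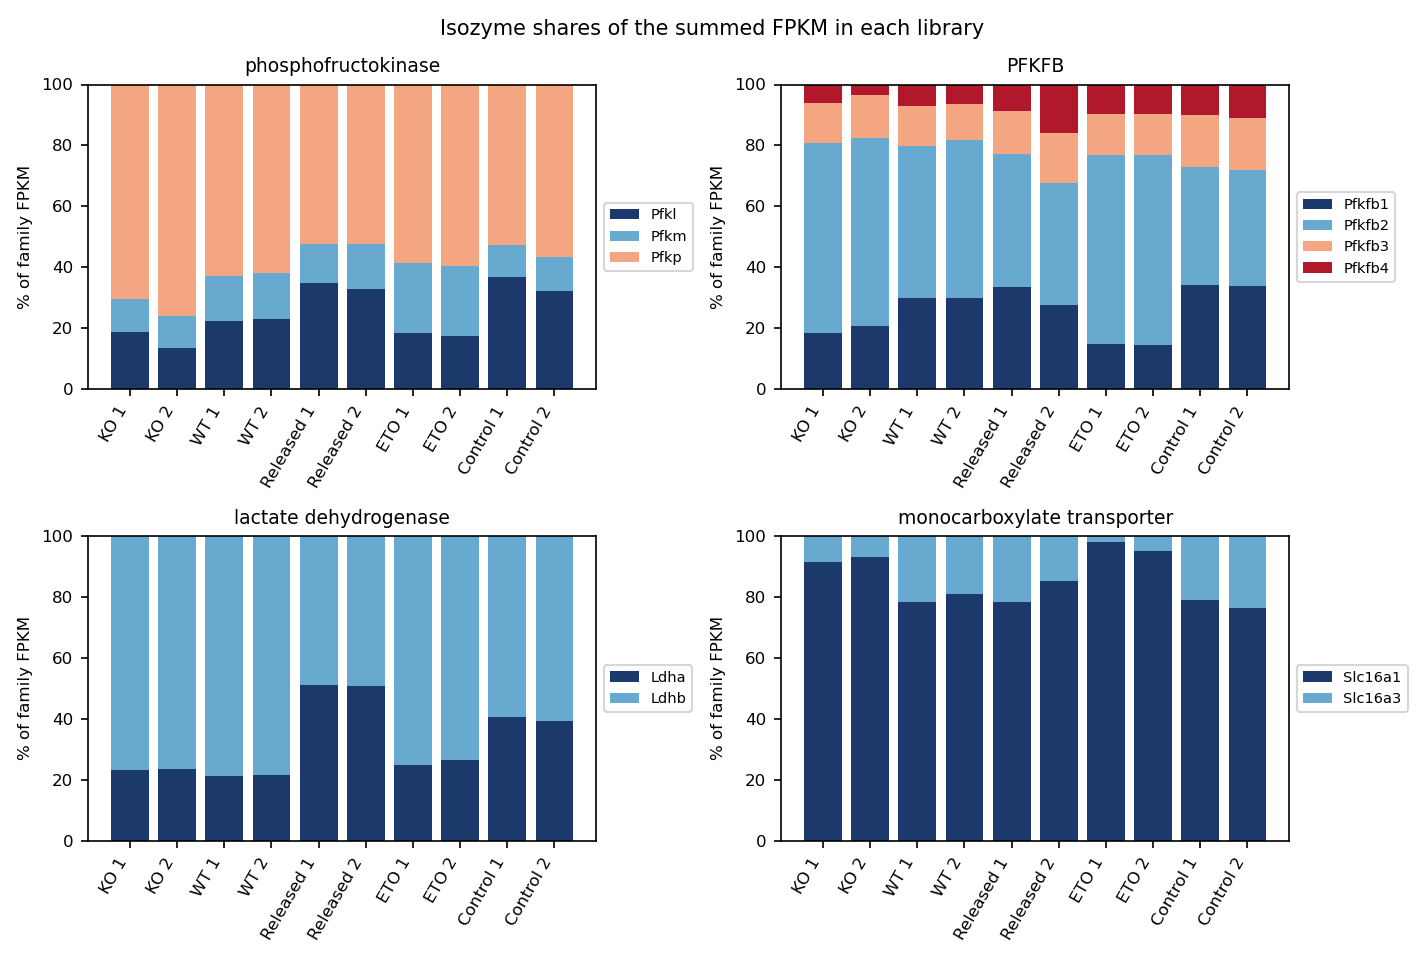
Share of each isozyme in the summed FPKM of its family (y axis, 0 to 100%) in each of the 10 libraries (x axis) for 4 families; bars are single libraries without error. The Ldha share is near 50% in both Released libraries and near 25% in both ETO libraries, and the Slc16a3 share is under 5% in both ETO libraries.

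A wider list of 57 genes of sugar metabolism that are not among the 34 had 46 tested genes. Of these 14 rose and 14 fell under etomoxir, 13 rose and 12 fell in Released against ETO cells, 3 rose and 4 fell in Released against Control cells, and 8 rose and 10 fell in KO against WT cells. Of all tested genes, 60.8%, 57.7%, 12.5% and 37.9% were called in these comparisons, in the same order. Both fructose bisphosphatases, which reverse the phosphofructokinase step in gluconeogenesis, were higher in ETO cells. Fbp2, the muscle isozyme, had 63.4 and 45.7 normalised counts in Released cells, 196 and 200.1 in ETO cells and 20.9 and 30.1 in Control cells. Its ETO values were the highest, with a change of 2.93 ± 0.27 (adjusted p = 1.50e-07) under etomoxir and -1.86 ± 0.27 (adjusted p = 2.29e-05) after release. Fbp1, the liver isozyme, had 8.95 and 16.4 normalised counts in Released cells, 18.8 and 15.8 in ETO cells and 2.202 and 4.15 in Control cells, with a change of 2.17 ± 0.45 (adjusted p = 6.85e-04) under etomoxir, and its Control values lay near the level of 3 reads. Pgm2, a phosphoglucomutase, had 185 and 182 normalised counts in Released cells, 714 and 798 in ETO cells and 247 and 229 in Control cells. Shpk, which phosphorylates sedoheptulose and so feeds the non-oxidative pentose branch, had 34.4 and 41.01 normalised counts in Released cells, 108 and 143 in ETO cells and 30.8 and 36.3 in Control cells. Both were highest in ETO cells, at 1.66 ± 0.11 (adjusted p = 3.52e-09) and 1.86 ± 0.21 (adjusted p = 1.96e-06). Gfpt2, which draws fructose 6-phosphate into the hexosamine pathway, had 486 and 547 normalised counts in Released cells, 203 and 236 in ETO cells and 864 and 803 in Control cells. It fell under etomoxir (-1.93 ± 0.092, adjusted p = 1.22e-10) and stayed lower in Released than in Control cells (-0.69 ± 0.092, adjusted p = 2.06e-04).

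The testis-type lactate dehydrogenase Ldhc had 17.5 and 22.3 normalised counts in KO cells, against 62.01 and 56.9 in WT cells, lower without overlap (-1.54 ± 0.23, adjusted p = 1.31e-04), and it also fell under etomoxir (-1.48 ± 0.23, adjusted p = 5.19e-05). Pklr, the liver and red-cell pyruvate kinase, had 1.35 and 0 normalised counts in KO cells, against 16.1 and 14.6 in WT cells. Its KO values lay at or under the level of 3 reads (2.07 to 4.04 normalised counts by library), which limits the precision of its change (-3.42 ± 0.70, adjusted p = 0.00146).

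Among 28 regulators of the pathway, 9 rose and 8 fell under etomoxir, 10 rose and 8 fell in Released against ETO cells, 2 rose and 1 fell in Released against Control cells, and 6 rose and 5 fell in KO against WT cells, beside 60.8%, 57.7%, 12.5% and 37.9% of all tested genes called. Hif1a, whose row is merged with Snapc1 and AC124712.1, had 2189 and 2332 normalised counts in Released cells, 3807 and 3697 in ETO cells and 2564 and 2534 in Control cells. The ETO values were the highest, with a change of 0.56 ± 0.075 (adjusted p = 1.09e-05). Epas1, which encodes HIF-2 alpha, had 777 and 756 normalised counts in Released cells, 529.8 and 549 in ETO cells and 445 and 415 in Control cells. It was highest in Released cells, at 0.83 ± 0.080 (adjusted p = 1.14e-05) against Control. Prkaa2, a catalytic subunit of AMP-activated kinase, had 507 and 503 normalised counts in Released cells, 1037 and 1063 in ETO cells and 618 and 552 in Control cells, a change of 0.85 ± 0.096 (adjusted p = 1.71e-06) under etomoxir. Its paralogue Prkaa1 had 1228 and 1234 normalised counts in KO cells, against 751 and 919 in WT cells, a rise of 0.57 ± 0.093 (adjusted p = 2.53e-04) in KO cells. Trp53, which drives Tigar in human cells, had 4378 and 4177 normalised counts in KO cells, against 3156 and 2656 in WT cells, with a change of 0.56 ± 0.071 (adjusted p = 2.88e-05), and it changed by -0.43 ± 0.071 (adjusted p = 8.79e-05) under etomoxir. Hif3a, an inhibitory member of the HIF family, had 53.8 and 70.7 normalised counts in KO cells, against 155 and 163 in WT cells, with a change of -1.35 ± 0.19 (adjusted p = 6.16e-05), and it also fell under etomoxir (-0.95 ± 0.19, adjusted p = 4.00e-04).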

How the data were processed

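Single-end reads of Illumina TruSeq libraries were processed with TopHat2 2.1.1, SAMtools 1.5 and deepTools on mm10, per the submitters' processing notes. The program that made the gene tables, its annotation and its use of strand are not given in the sources used here. The deposited values are, per the file headers, counts and FPKM. The deposited signal lay largely on a scale of counts divided by 1 factor per library: 89.0% to 90.3% of low values and 84.4% to 85.6% of all values were whole reads within 0.1 read, at 0.689 to 1.35 normalised counts per read. No count model was fitted. The authors' scale was kept. Rows with the same name were summed, and merged rows were kept. Of 49624 names, the 16056 that reached 10 normalised counts in 2 or more libraries were tested with limma 3.58.1 (R 4.3.3) on log2(value + 1), which understates changes of low genes. The fit had 1 mean per group over all 10 libraries, with trend and robust moderation. Tests were two-sided, and an adjusted p under 0.05 was a call. Intervals are 95%. A pair of mitochondrial rows listed at 0 in Released replicate 1 was left out. An estimated 9783470 to 16778500 reads lay behind a library, and replicates correlated at 0.985 to 0.990 across genes. Their median absolute log2 difference was 0.147 in KO, 0.183 in WT, 0.105 in Released, 0.120 in ETO and 0.106 in Control cells. The shared spread thus pooled groups whose replicates differed to unequal degrees. Of the genes that are not members, up to 3 with the largest change per list and comparison could be named. Shared windows were found with bwa 0.7.19-r1273 on GENCODE transcripts of GRCm38. Alternatives were scaling, pseudocount, filter, FPKM values, fits per experiment, moderation, a replicate block, each library left out and, added after seeing the data, rows of copies. The procedure was tested on simulated data. Members and lists were chosen with earlier results of these data known.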

Additional observations from a re-analysis of the deposited data

How the results depend on the processing

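The counts below are of the 34 genes unless all tested genes are named. In KO against WT cells, 11 rose, but 6 with total signal as the scaling factor and 5 on FPKM values; 10 fell, but 6 on FPKM values, 6 with 1 fit per experiment and 5 to 9 with 1 library left out. All tested genes called there were 6086, but 3091 on FPKM values. With 1 fit per experiment 7 of the 21 KO calls were lost (Slc2a1, Slc2a3, Eno2, Ldhb, Tkt, Taldo1 and Rpe). In Released against Control cells 0 rose, but 1 with median-of-ratios factors, 2 with total signal, 1 with a pseudocount of 10, 2 with a filter of at least 50, 2 with 1 fit per experiment and 0 to 3 with 1 library left out; 7 fell, but 3 on FPKM values, 13 with 1 fit per experiment and 5 to 10 with 1 library left out. All tested genes called there were 2012, but 379 on FPKM values, 3662 with 1 fit per experiment, 1171 without the trend and robust options and 770 to 2864 with 1 library left out. The sign turned in KO cells for Slc2a1 on FPKM values (-0.038) and for Slc2a3 with total signal (-0.028) and on FPKM values (-0.0040). The cause of these shifts was not tested. All other counts stayed within 1.5 times. The median of all genes shifted by 0.10 with median-of-ratios factors and 0.16 with total signal for ETO against Control, by -0.16 and -0.13 with total signal for KO against WT and Released against ETO, and by -0.18, -0.16 and -0.33 with median-of-ratios, TMM and total-signal factors for the KO change minus the ETO change. Relative to the median of all genes, the members' median for ETO against Control was -0.48 under each scaling. Replicate numbers are shared between groups. Differences between replicates 1 and 2 over all tested genes correlated at 0.081 for KO and WT. The correlation was -0.015 for ETO and Control and 0.038 for Released and Control. With 2 libraries a group these values cannot settle whether same-numbered libraries were paired. With a replicate block, 3 of the 34 rose and 12 fell in Released against Control cells, where 3110 of all tested genes were called, and Eno2 was not called in KO cells. A library's value of 3 reads was 2.07 to 4.04 normalised counts. That limits Pklr, Slc2a6, the Control levels of Fbp1 and Tbx6 and the WT level of Dab2, but none of the 34.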

Other observations

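The WT and Control groups of the 2 experiments also held different levels of some of these genes. These groups differ in cell line, experiment, agent added and days of treatment. Control cells had water, and the labels do not state whether WT cells had the drug of their experiment or ethanol. The levels are given here without a test because these differences cannot be told apart. Ldhb had 9381 and 9313 normalised counts in WT cells and 3836 and 3808 in Control cells, Eno2 had 181 and 150.2 in WT cells and 22.02 and 24.9 in Control cells, and Pfkfb2 had 1564 and 1750.5 in WT cells and 609 and 607 in Control cells. Slc2a1 went the other way, with 1683 and 1491 in WT cells and 3683 and 3651 in Control cells, as did Gapdh, with 214 and 161 in WT cells and 566 and 569 in Control cells.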
